A study of Mus musculus with 8 samples.

Results

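The genes described are the nuclear genes for proteins of the mitochondrial ribosome. They were taken as every protein-coding gene of the GENCODE M21 mouse annotation whose symbol starts with Mrpl (large subunit series) or Mrps (small subunit series), which gave 78 genes, 49 Mrpl and 29 Mrps, of 55487 genes in all. The libraries came from C57BL/6 mice carrying subcutaneous B16F10 tumors, B16F10 being a mouse melanoma cell line. Tacrolimus (FK506), an inhibitor of the phosphatase calcineurin, was injected intraperitoneally at 3 mg/kg every 5 days into 4 mice, and vehicle was injected by the same route and interval into 4 mice. Dosing began 7 to 9 days after tumor injection, at about 50 mm3. Harvest followed 6 days after the first dose, and 1 RNA sequencing library per mouse was made from tumor-infiltrating lymphocytes sorted as CD8+.

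The mitochondrial ribosome is a separate ribosome inside the organelle. Its RNA is made from the mitochondrial genome, all of its proteins are made from nuclear genes and imported, and its products are the membrane subunits of the respiratory chain and ATP synthase that the mitochondrial genome encodes. Some of its proteins have bacterial counterparts, and others are found only in mitochondrial ribosomes. Activated T cells and tumor cells both depend on mitochondrial translation for respiration.

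Values are FPKM (fragments counted per unit of transcript length and of sequencing depth), so levels can be compared between genes. Depth was estimated from the spacing of low values at 15480000 to 19220000 fragments per library. Levels of T cell markers were low for sorted CD8+ cells. The 13 T cell markers summed to between 53.0 and 373 FPKM in tacrolimus libraries and between 359 and 1527 FPKM in vehicle libraries, all 13 with a lower mean in tacrolimus. The 10 melanoma markers summed to between 22097 and 27113 FPKM in tacrolimus libraries and between 18532 and 33646 FPKM in vehicle libraries, with 7 lower in mean in tacrolimus. Macrophage markers summed to between 233 and 545 FPKM in tacrolimus libraries and between 417 and 1772 FPKM in vehicle libraries, with 13 of 13 lower in mean. No marker of these lists was at 0 in all libraries. Levels here are therefore those of mixed RNA in which melanoma transcripts were abundant. Fewer cells of a type and less RNA per cell cannot be told apart.

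Where the genes lie was examined first, because many mitoribosomal genes share a start region with a neighbour. The 78 genes were spread over 17 chromosomes, with the most, 11, on chromosome 11. A protein-coding gene on the opposite strand with a start site within 1000 bases was annotated for 33 of the 78 (42.3%), against 10.9% of 21951 protein-coding genes. Mrps11 and Mrpl46, a small and a large subunit gene, were each other's partner. Other partners with mitochondrial roles were Sars2, the mitochondrial seryl-tRNA synthetase, beside Mrps12, Ndufs6, a subunit of respiratory complex I, beside Mrpl36, and Twnk, the mitochondrial DNA helicase, beside Mrpl43. RefSeq promoter windows of GRCm38.p6, from 250 bases before to 50 after a start, were available for 69 of the 78 genes, and the first window listed per gene was used. Of these, 3 are shown over the bases before the RefSeq start, for the head-to-head genes Mrps11, Mrps12 and Mrpl32. By GENCODE, Mrpl32 starts 75 bases from Psma2, a proteasome subunit gene. That GENCODE start, base 14613165, lies inside the printed window and not at its end. Capitals mark the letters AAGATGGC or their reverse complement (the core of the motif of the factor YY1) and GCGCATGC or their reverse complement (the first letters of the motif of NRF1, a regulator of nuclear genes for mitochondrial proteins). The windows are Mrps11 at chr7:78782881-78783130 on the plus strand, Mrps12 at chr7:28741822-28742071 on the minus strand and Mrpl32 at chr13:14613038-14613287 on the minus strand, each printed 5′ to 3′ along its gene.
Mrps11: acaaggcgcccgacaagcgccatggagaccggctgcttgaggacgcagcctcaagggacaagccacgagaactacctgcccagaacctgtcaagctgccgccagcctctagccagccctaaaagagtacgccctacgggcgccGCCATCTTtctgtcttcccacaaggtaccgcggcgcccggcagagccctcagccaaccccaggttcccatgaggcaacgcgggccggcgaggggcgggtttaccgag
Mrps12: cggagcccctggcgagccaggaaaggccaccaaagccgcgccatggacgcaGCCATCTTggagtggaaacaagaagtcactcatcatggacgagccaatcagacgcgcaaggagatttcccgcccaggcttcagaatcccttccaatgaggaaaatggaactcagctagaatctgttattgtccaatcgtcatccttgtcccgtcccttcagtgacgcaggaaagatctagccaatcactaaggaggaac
Mrpl32: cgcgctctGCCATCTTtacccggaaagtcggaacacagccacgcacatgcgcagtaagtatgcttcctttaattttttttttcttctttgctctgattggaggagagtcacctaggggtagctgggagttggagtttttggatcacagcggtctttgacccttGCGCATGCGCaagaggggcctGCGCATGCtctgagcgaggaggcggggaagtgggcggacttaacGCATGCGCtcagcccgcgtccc

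In Mrps11 the core began 107 bases before the start, in Mrps12 199 before and in Mrpl32 242 before. Each of these printed cores lies past the annotated start of the neighbour (Mrpl46, Sars2 or Psma2), inside that gene. In Mrpl36 the core began 30 bases before the start. In the other windows that held it, not shown, it began 11 to 36 bases after the start. Mrpl32 also had NRF1 letters beginning 87, 85, 66 and 22 bases before, the first pair overlapping as 1 run. These NRF1 letters lie after the GENCODE start of Mrpl32. The windows of Mrps11 and Mrpl46 shared 141 bases. Searched on both strands, the YY1 core was present in 12 of the 69 windows (17.4%), against 3.29% of 16522 windows of protein-coding genes. The letters CCGGAAGT, bound by ETS factors, were in 11 (15.9% against 5.52%), and the NRF1 letters in 8 (11.6% against 3.76%). In 3 of those 8 (4.35% against 1.37%), the windows of Mrpl9, Mrpl32 and Mrpl39, the letters and their reverse complement overlapped as 1 palindromic run. The letters CCAAT were in 27 (39.1% against 38.7%). These are letter matches and not measured binding.

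All 78 genes had at least 1 FPKM in all 8 libraries. Mean levels over all libraries ran from 6.04 FPKM for Mrpl1, a protein of the mobile L1 stalk, to 326 FPKM for Mrpl42, a mitochondria-specific large subunit protein, with a median of 57.4 FPKM. Behind Mrpl42 came Mrps21, Mrpl33, Mrpl17 and Mrps33 as the other most abundant genes, and Mrpl47 and Mrps31 were the lowest after Mrpl1. The order of the genes was nearly the same in every library, with a Spearman rho across the 78 genes of 0.973 to 0.991 between pairs of libraries, given as a description since genes are not independent and share each library.

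The summed level of the 78 genes did not separate the groups. It was 5346, 5973, 6530 and 6451 FPKM in tacrolimus libraries 1 to 4, and 5520, 7188, 6190 and 5129 FPKM in vehicle libraries 1 to 4. Means were 6075 ± 545 FPKM with tacrolimus and 6007 ± 901 FPKM with vehicle (SD, n = 4 each), and the vehicle libraries spanned the whole tacrolimus range. On the deposited scale vehicle library 2 had the highest value for 56 of the 78 genes, and tacrolimus library 3 for 9. Tacrolimus library 1 had the lowest value for 28 genes, vehicle library 4 for 21 and vehicle library 1 for 15. For 67 genes the tacrolimus mean lay inside the vehicle range, and for 63 the SD was larger with vehicle. The median coefficient of variation was 11.2% with tacrolimus and 16.7% with vehicle. These spreads are on the deposited scale and include the differences in scale between libraries, and no share over all genes is given. After division by the median-of-ratios factors, the SD of Mrps28 was 9.30 with tacrolimus and 6.44 with vehicle. That of Mrps21 was 31.6 and 48.8, so genes went both ways.

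**Figure D1:**
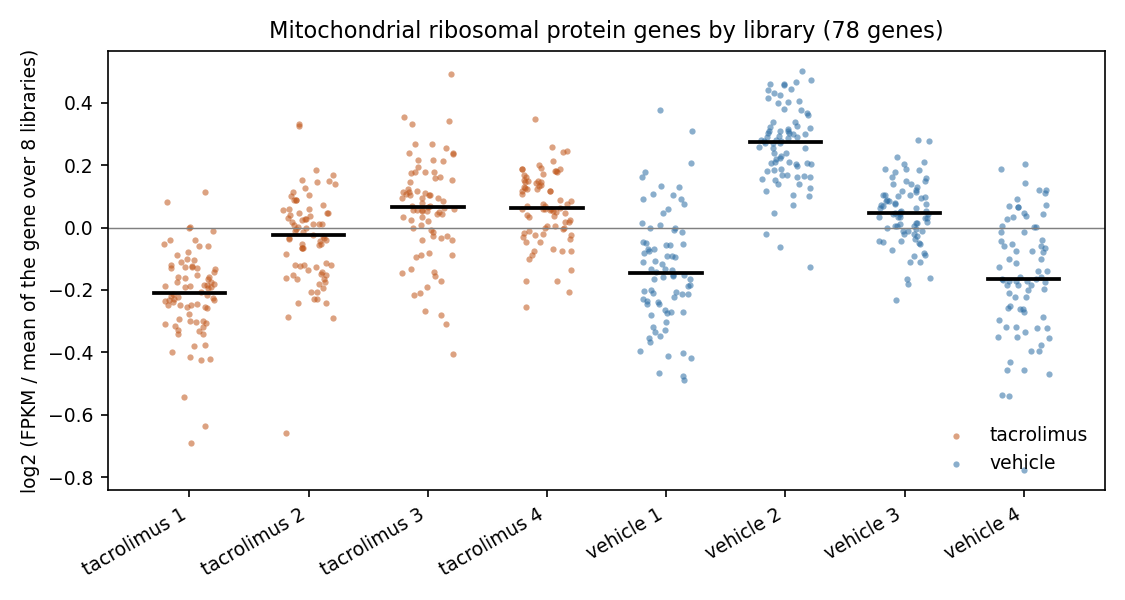
Each point is 1 of the 78 genes in 1 library, as log2 of its FPKM over the mean of that gene across the 8 libraries, with black bars at the median. Most points of vehicle library 2 lie above 0 and most points of tacrolimus library 1 and vehicle libraries 1 and 4 below it. The libraries thus differ within each group on the deposited scale, which includes the scale of each whole library.

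The share of the library taken by the mitochondrial chromosome also differed. It made up 20.4, 12.5, 11.7 and 10.5% of the summed FPKM in tacrolimus libraries 1 to 4, and 12.4, 6.65, 9.89 and 7.78% in vehicle libraries 1 to 4. This includes the mitochondrial ribosomal RNAs, which summed to 119052, 54264, 44131 and 37326 FPKM in tacrolimus libraries. In vehicle libraries they summed to 74177, 17994, 40526 and 30886 FPKM. The library with the largest share, tacrolimus 1, was that with the most lowest values of the 78 genes. The library with the smallest, vehicle 2, was that with the most highest values. Other libraries did not follow this order. Vehicle 4, with a share of 7.78%, had the lowest sum of the 78 genes (5129 FPKM) and 21 lowest values. A relation between the share and the 78 genes was not tested. With the mitochondrially encoded genes left out of the library totals, the median difference of the 78 genes was 0.03, against -0.05 as deposited. Nuclear copies nearly identical to mitochondrial genes stayed in these totals. They summed to between 39662 and 53287 FPKM in tacrolimus libraries and between 25918 and 36993 FPKM in vehicle libraries.

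No mitoribosomal gene passed an adjusted p of 0.05 in the comparison of tacrolimus with vehicle by limma on log2(FPKM + 1), and the smallest adjusted p was 0.287. No gene of the 13032 tested passed it. At an unadjusted p under 0.05, 1 of the 78 was lower (Mrpl37) and 0 were higher, where 15.8% of all genes tested were lower and 1.6% higher. The groups overlapped for all 78, so 0 were lower and 0 higher without overlap, against 10.2% and 0.767% of all genes tested. The log2 difference, tacrolimus minus vehicle, was below 0 for 48 of 78 (61.5%), against 75.7% of all genes. Its median was -0.05 over the 78 genes, with a range of -0.34 to 0.33, while the median over all genes tested was -0.19.

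The precision of these differences limits what size could be missed. The median standard error was 0.16 on the log2 scale for the 78 genes and 0.21 for all genes tested. On the deposited scale the 95% intervals of all 78 excluded a change of 1 on the log2 scale in either direction, and those of 53 excluded a change of 0.5. These intervals hold for the deposited scaling only.

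**Figure D2:**
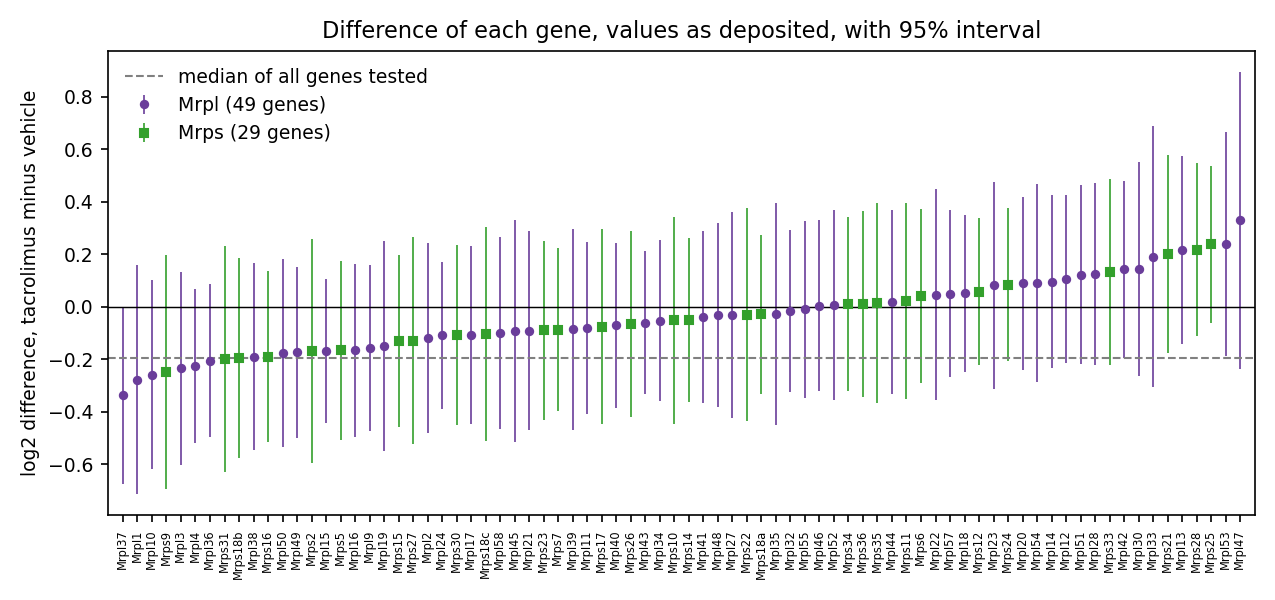
Log2 difference, tacrolimus minus vehicle, of each of the 78 genes on the deposited scale, with its 95% interval from limma; circles are Mrpl genes, squares Mrps genes and the dashed line the median of all genes tested (-0.19). The points run from -0.34 for Mrpl37 to 0.33 for Mrpl47 and most intervals include 0.

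Whether the genes lay above or below 0 depended on how the libraries were scaled. With median-of-ratios scaling, which sets the median gene near 0 (-0.001), the median of the 78 genes was 0.17 and 72 of 78 lay above 0 and 6 below, against 50.2% of all genes below, so the direction of the list flips from the deposited scale. With upper-quartile scaling it was also 0.17. After the mitochondrially encoded genes were left out of the library total it was 0.03, with 45 above 0 and 33 below, against 67.9% of all genes below. On that scale 3 of the 78 were higher at an unadjusted p under 0.05, against 2.38% of all genes, and 1 was higher and 1 lower without overlap, against 1.17% and 7.27%. After melanoma markers and the 20 most abundant genes were left out the median was 0.07, with 56 above 0. Under median-of-ratios scaling 12 of the 78 were higher at an unadjusted p under 0.05, against 5.17% of all genes, and 10 were higher without overlap, against 2.96%. None was lower by either measure, against 6.15% and 3.67% of all genes, and none passed the adjusted p, of which the smallest was 0.342. On the deposited scale the list lay 0.14 above the median of all genes on the log2 scale.

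Cytosolic ribosomal proteins and nuclear subunits of oxidative phosphorylation were set beside them, from lists chosen by symbol after the files had been seen. The 87 cytosolic ribosomal protein genes tested had a median difference of 0.03, and the 78 nuclear oxidative phosphorylation genes tested had 0.08, both on the deposited scale. With median-of-ratios scaling these medians were 0.25 and 0.30. The summed mitoribosomal level per unit of cytosolic ribosomal protein level was 0.127 ± 0.00549 with tacrolimus and 0.127 ± 0.0174 with vehicle (SD, n = 4 each), with overlap. Per unit of nuclear oxidative phosphorylation level it was 0.138 ± 0.00792 with tacrolimus and 0.148 ± 0.00557 with vehicle, also with overlap. These ratios are within a library and do not depend on its scaling.

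**Figure D3:**
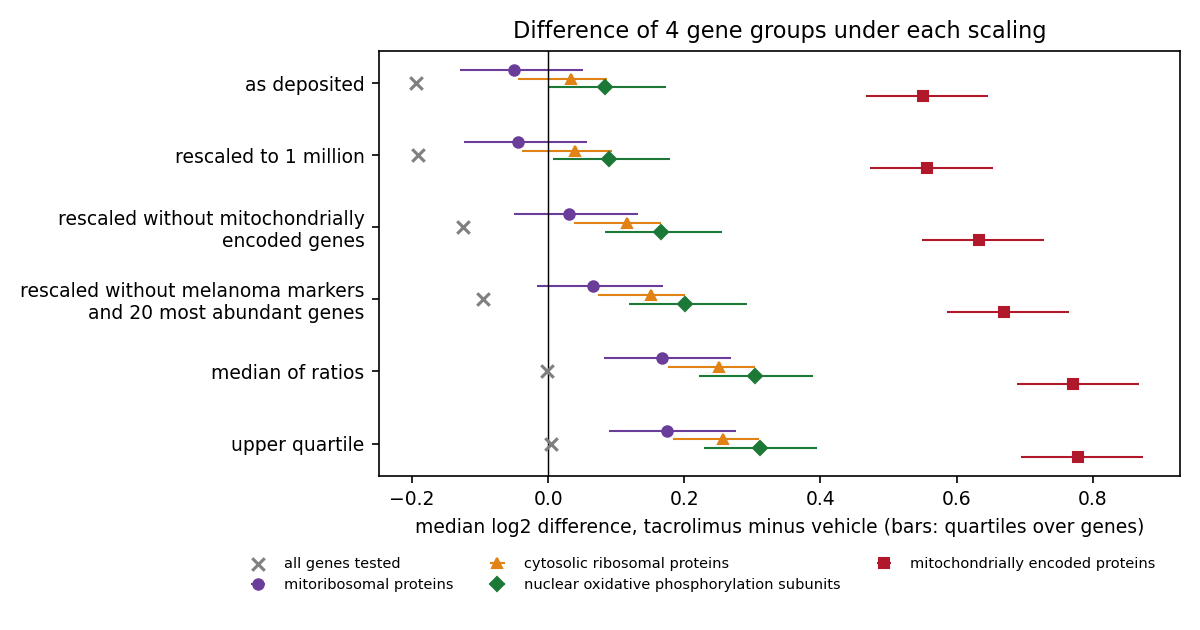
Median log2 difference, tacrolimus minus vehicle, of 4 gene groups under 6 scalings, with bars for the quartiles over genes and crosses for the median of all genes tested. The mitoribosomal median lies at -0.05 as deposited and at 0.17 under median-of-ratios scaling, and lies to the right of the cross under each of the 6 scalings.

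Large subunit genes were examined next. The 29 with bacterial counterparts had a median difference of -0.05 on the deposited scale, and the 21 mitochondria-specific ones had -0.04; this and the other medians by structure are on the deposited scale, on which all genes tested had a median of -0.19. Mrpl37, a mitochondria-specific protein (chromosome 4, 107055874 to 107066868, minus strand, GRCm38), had 28.9, 34.6, 35.1 and 36.6 FPKM in tacrolimus libraries, against 36.2, 53.0, 41.9 and 41.9 FPKM in vehicle libraries. Its highest tacrolimus library lay just above its lowest vehicle library, so the groups overlapped by this 1 pair. The log2 difference was -0.34 (SE 0.15, adjusted p = 0.287, limma), and -0.12 under median-of-ratios scaling.

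Of the 8 members with the smallest p, 5 have bacterial counterparts in the large subunit, and all 5 had a lower mean with tacrolimus on the deposited scale. This was not particular to such genes. Below 0 were 62.1% of large subunit genes with bacterial counterparts, 61.9% of the mitochondria-specific ones and 75.7% of all genes tested. Mrpl4, a protein of the tunnel wall, averaged 55.6 ± 4.92 FPKM with tacrolimus and 65.3 ± 7.22 FPKM with vehicle (SD, n = 4 each; log2 difference -0.23, adjusted p = 0.380, limma). Mrpl10, which anchors the stalk that binds translation factors, averaged 31.7 ± 3.42 FPKM with tacrolimus and 38.5 ± 7.44 FPKM with vehicle (-0.26). Mrpl3, which reaches toward the peptidyl transferase centre, averaged 43.4 ± 3.95 FPKM with tacrolimus and 51.9 ± 11.3 FPKM with vehicle (-0.23). Mrpl1 averaged 5.38 ± 1.121 FPKM with tacrolimus and 6.69 ± 1.09 FPKM with vehicle (-0.28). In each of these 4 genes the groups overlapped, and under median-of-ratios scaling the differences lay between -0.09 and -0.01. Mrpl36, a small protein of the large subunit, averaged 86.2 ± 7.63 FPKM with tacrolimus and 99.7 ± 11.7 FPKM with vehicle (-0.20, and 0.01 under median-of-ratios scaling).

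At the other end stood Mrpl47, a protein at the tunnel exit (chromosome 3, 32725397 to 32737605, minus strand), with the largest positive difference. It had 6.72, 13.6, 15.2 and 13.8 FPKM in tacrolimus libraries, against 8.24, 9.93, 11.8 and 7.46 FPKM in vehicle libraries. Tacrolimus libraries 2, 3 and 4 lay above every vehicle library, and tacrolimus library 1 lay below them all (log2 difference 0.33, SE 0.25, adjusted p = 0.498, limma). Of its exon bases, 24.2% overlap exons of 2 other genes, the larger part (13.9%) those of Ndufb5 on the opposite strand, a complex I gene at 243 FPKM, and whether strand was used in the authors' counting is not given in the sources used here.

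The most abundant genes overlapped between groups as well. Mrpl42 (chromosome 10, 95480805 to 95501940, minus strand) had 297, 355, 353 and 356 FPKM in tacrolimus libraries, against 270, 395, 306 and 273 FPKM in vehicle libraries. Vehicle library 2 was the highest of the 8, and the other vehicle libraries lay below tacrolimus libraries 2 to 4 (0.14, SE 0.15, adjusted p = 0.622, limma). Mrpl33 averaged 291 ± 55.1 FPKM with tacrolimus and 259 ± 66.9 FPKM with vehicle (0.19). Mrpl17, a tunnel exit protein, averaged 190 ± 23.5 FPKM with tacrolimus and 206 ± 34.1 FPKM with vehicle (-0.11).

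By position in the large subunit, the 5 genes of the factor-binding stalk had a median difference of 0.09, the 7 of the central protuberance -0.03 and the 6 of the tunnel exit -0.02. Mrpl12, a stalk protein that also binds mitochondrial RNA polymerase, had 103, 112, 110 and 110 FPKM in tacrolimus libraries, against 84.0, 122, 112 and 90.4 FPKM in vehicle libraries. Its tacrolimus values lay inside the vehicle range (0.11, SE 0.14, adjusted p = 0.708, limma). Mrpl45, which contacts the inner membrane beside the tunnel exit, averaged 25.6 ± 3.42 FPKM with tacrolimus and 27.7 ± 6.08 FPKM with vehicle (-0.09). Mrpl58, a peptidyl-tRNA hydrolase that is also a subunit, averaged 64.4 ± 9.16 FPKM with tacrolimus and 69.3 ± 12.5 FPKM with vehicle (-0.10). Mrps30, a large subunit protein in spite of its symbol, averaged 16.6 ± 2.26 FPKM with tacrolimus and 17.9 ± 2.002 FPKM with vehicle (-0.11).

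Among small subunit genes the 15 with bacterial counterparts had a median difference of -0.08 and the 10 mitochondria-specific ones -0.05. Mrps25, a mitochondria-specific protein (chromosome 6, 92169525 to 92184033, minus strand), had 92.6, 103, 97.0 and 110 FPKM in tacrolimus libraries, against 74.8, 98.0, 92.9 and 77.3 FPKM in vehicle libraries. Only vehicle libraries 2 and 3 reached the lowest tacrolimus library, which left the groups overlapping (0.24, SE 0.13, adjusted p = 0.369, limma). Divided by the median-of-ratios factors it had 106, 109, 114 and 106 in tacrolimus libraries, against 73.9, 82.4, 90.8 and 70.0 in vehicle libraries. On that scale all 4 tacrolimus libraries lay above all 4 vehicle libraries (0.46, SE 0.10, adjusted p = 0.342, limma), the smallest p among the 78 genes there. Exons of Mrps25 overlap those of Nr2c2 on the opposite strand over 69.8% of their bases, with Nr2c2 at 8.06 FPKM.

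Mrps28, a small subunit protein, averaged 66.9 ± 7.20 FPKM with tacrolimus and 57.7 ± 8.86 FPKM with vehicle (SD, n = 4 each; 0.22, adjusted p = 0.448, limma). It too separated the groups under median-of-ratios scaling (0.43, adjusted p = 0.400, limma). Mrps21, the most abundant small subunit gene, had 273, 279, 313 and 325 FPKM in tacrolimus libraries, against 244, 327, 289 and 193 FPKM in vehicle libraries. Vehicle libraries held both its highest and its lowest value (0.20, adjusted p = 0.535, limma). Mrps33 averaged 182 ± 20.5 FPKM with tacrolimus and 167 ± 29.9 FPKM with vehicle (0.13). Mrps31 averaged 12.9 ± 2.02 FPKM with tacrolimus and 15.1 ± 3.38 FPKM with vehicle (-0.20).

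Mrps12, the counterpart of the bacterial decoding-site protein S12, had 90.6, 84.5, 94.8 and 72.7 FPKM in tacrolimus libraries, against 78.5, 82.6, 79.1 and 87.7 FPKM in vehicle libraries (0.06, adjusted p = 0.826, limma). Its 4 vehicle values lay inside the tacrolimus range. Sars2, the partner across the printed start region, had a difference of -0.24. The head-to-head pair Mrps11 and Mrpl46 differed by 0.02 and 0.00, with means of 26.2 ± 1.71 FPKM with tacrolimus and 26.2 ± 6.21 FPKM with vehicle for Mrps11.

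The paralogs Mrps18a, Mrps18b and Mrps18c all descend from the bacterial protein S18. Mrps18a, in the large subunit, averaged 90.04 ± 7.34 FPKM with tacrolimus and 92.3 ± 12.8 FPKM with vehicle (-0.03). Mrps18b, in the small subunit, averaged 66.9 ± 12.1 FPKM with tacrolimus and 76.2 ± 10.9 FPKM with vehicle (-0.19). Mrps18c, also in the small subunit, averaged 95.01 ± 10.99 FPKM with tacrolimus and 104 ± 23.7 FPKM with vehicle (-0.10). All 3 overlapped between groups. Mrps36, included by its symbol, is known as a component of the ketoglutarate dehydrogenase complex. It averaged 160 ± 16.6 FPKM with tacrolimus and 160 ± 31.2 FPKM with vehicle (0.01).

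Some mitoribosomal genes have near-identical copies that could share their fragments. A pseudogene copy with at least 95% identity over at least 200 bases was found for 20 of the 78, and for 2 it stood at 10% of the level of the gene or more. Counting any annotated gene with such a stretch, whether or not a copy, these numbers were 32 and 11. They include neighbours with overlapping exons, such as Twnk for Mrpl43, and short matches to genes elsewhere, such as 202 bases of Hdac1 for Mrps26. For 7 members, over 25% of exon bases overlapped other genes, with the most, 88.0%, for Mrpl53. Mrpl23 had 33.1 FPKM over all libraries and its identical copy Mrpl23-ps1 had 92.4 FPKM. Their sum was 129 ± 20.3 FPKM with tacrolimus and 122 ± 24.9 FPKM with vehicle (SD, n = 4 each). Mrps33 and its copy summed to 203 ± 30.6 FPKM with tacrolimus and 184 ± 34.1 FPKM with vehicle, and the groups overlapped for both sums.

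The 13 protein transcripts of the mitochondrial genome, which the mitochondrial ribosome translates, stood further apart between the groups than the mitoribosomal genes did. Of these, 12 could be tested and mt-Nd4l was listed at 0 in all libraries. All 12 had a difference above 0 on the deposited scale, with a median of 0.55, and 8 of 12 were higher at an unadjusted p under 0.05, against 1.6% of all genes tested. The 4 tacrolimus libraries lay above the 4 vehicle libraries for 7 (mt-Nd1, mt-Nd2, mt-Nd4, mt-Cytb, mt-Co1, mt-Co2 and mt-Atp6), against 0.767% of all genes. None passed the adjusted p, of which the smallest was 0.193 by limma. With the macrophage marker level as a covariate 3 of the 12 were higher at the unadjusted p and 1 was below 0, and with the T cell marker level 5 were higher, 2 were below 0 and 1 of these was lower at the unadjusted p.

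mt-Atp6, an ATP synthase subunit, had 12370, 13067, 13822 and 14022 FPKM in tacrolimus libraries, against 8260, 9471, 10654 and 8255 FPKM in vehicle libraries. Every tacrolimus library exceeded every vehicle library (0.55, SE 0.17, adjusted p = 0.195, limma). mt-Nd2, a complex I subunit, had 4063, 3600, 3031 and 2646 FPKM in tacrolimus libraries, against 2416, 1759, 2332 and 2087 FPKM in vehicle libraries, again without overlap (0.63, SE 0.18, adjusted p = 0.193, limma). mt-Cytb, the complex III subunit, averaged 8141 ± 401 FPKM with tacrolimus and 5734 ± 1287 FPKM with vehicle (SD, n = 4 each). mt-Atp8 was the transcript with the smallest difference (0.13), and its groups overlapped.

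**Figure D4:**
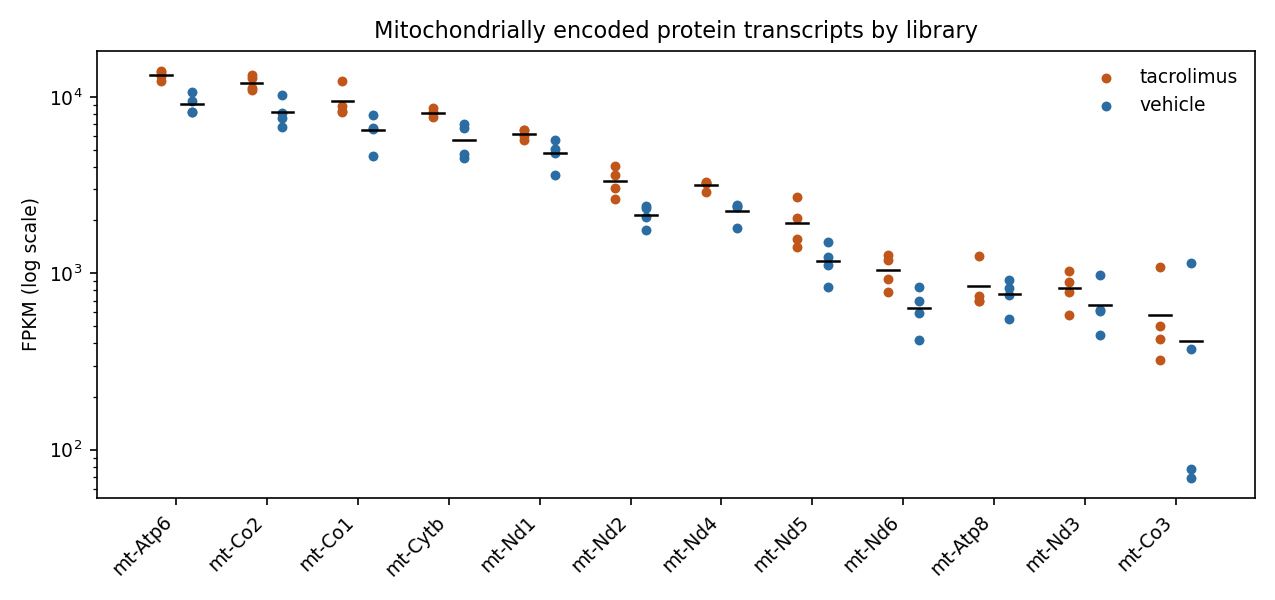
FPKM on a log scale of the 12 mitochondrially encoded protein transcripts that were tested, 1 point per library, tacrolimus left of vehicle for each gene and bars at the group means. The groups do not overlap for 7 genes, and mt-Co3 spreads most widely, from 69.4 to 1144 FPKM in vehicle libraries.

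Nuclear copies nearly identical to mitochondrial genes could share their fragments. mt-Co3 averaged 582 ± 342 FPKM with tacrolimus and 416 ± 506 FPKM with vehicle, while Gm28437, a copy identical over 783 bases, averaged 17913 FPKM with tacrolimus and 13623 FPKM with vehicle. Their sum was 18495 ± 1802 FPKM with tacrolimus and 14039 ± 2087 FPKM with vehicle, without overlap. Sums with the copy were also without overlap for mt-Co1, mt-Co2 and mt-Nd4, and overlapped for mt-Nd3 and mt-Nd4l.

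Set against each other within a library, the mitochondrially encoded and the mitoribosomal transcripts gave a ratio that does not depend on the scaling. The summed FPKM of the 13 protein transcripts was 12.3, 9.90, 9.42 and 8.82 times that of the 78 mitoribosomal genes in tacrolimus libraries, against 6.96, 6.07, 7.94 and 7.48 times in vehicle libraries. All 4 tacrolimus libraries lay above all 4 vehicle libraries. Means were 10.1 ± 1.53 with tacrolimus and 7.11 ± 0.801 with vehicle (SD, n = 4 each), a log2 difference of 0.50. With the nuclear copies added, an alternative chosen after the data had been seen, the ratios were 22.3, 16.8, 16.4 and 15.0 in tacrolimus libraries and 12.6, 10.8, 13.9 and 12.5 in vehicle libraries, without overlap. No p-value is given for these sums, because the genes were chosen with earlier results known. T cell and macrophage marker sums were lower in mean with tacrolimus, and their part in the ratio was not tested.

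**Figure D5:**
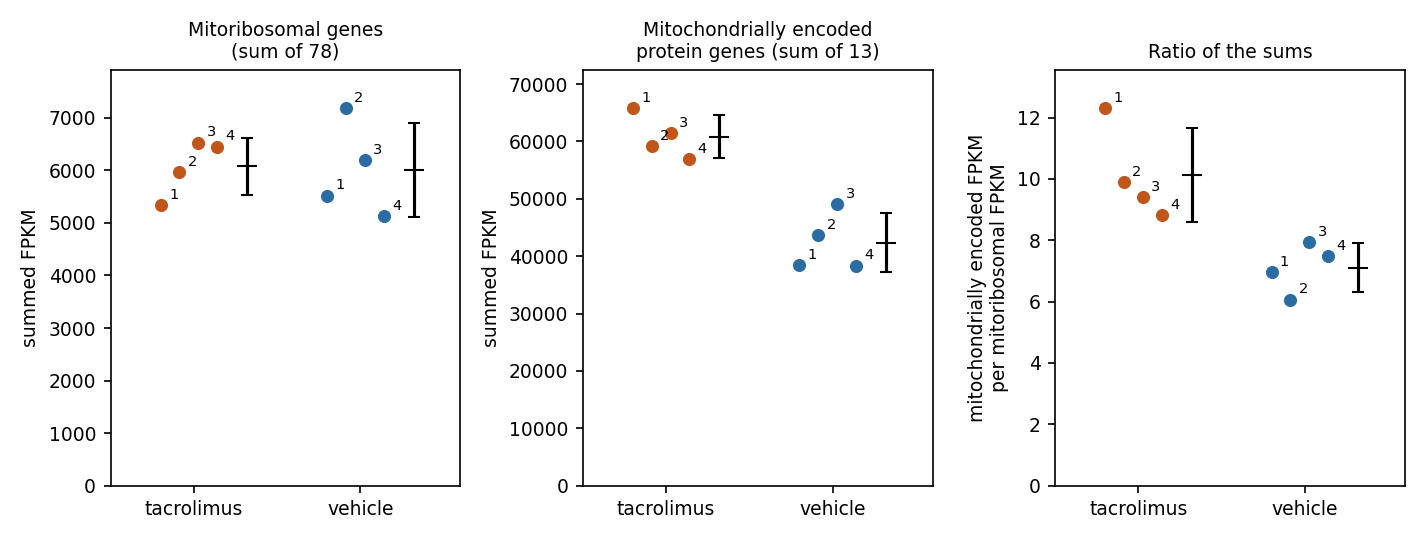
Summed FPKM of the 78 mitoribosomal genes (left), of the 13 mitochondrially encoded protein genes (middle) and the ratio of these sums (right), 1 numbered point per library, with mean and SD beside them. The mitoribosomal sums overlap between groups, while the mitochondrially encoded sums and the ratios do not.

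The ribosomal RNAs of the mitochondrial ribosome varied far more than its proteins. mt-Rnr1, the small subunit RNA, was at 61769, 28200, 23243 and 19738 FPKM in tacrolimus libraries, against 39829, 9129, 21268 and 16775 FPKM in vehicle libraries. The highest library of each group was its library 1, and the groups overlapped (0.66, SE 0.47, adjusted p = 0.471, limma). mt-Rnr2, the large subunit RNA, averaged 30456 ± 18222 FPKM with tacrolimus and 19146 ± 10987 FPKM with vehicle (0.68, SE 0.46). All 22 mitochondrial tRNA genes were listed at 0 in all libraries.

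Other genes of mitochondrial translation were taken from fixed lists. Of 5 mitoribosomal proteins with other symbols (Dap3, Chchd1, Aurkaip1, Ptcd3 and Gadd45gip1) none was higher or lower at an unadjusted p under 0.05, and their median was -0.03. Of 13 translation factors 1 was lower and 0 were higher (median -0.17), of 26 assembly factors 2 and 0 (-0.21), of 16 mitochondrial aminoacyl-tRNA synthetases 3 and 0 (-0.14), and of 16 genes of mitochondrial DNA expression 2 and 0 (-0.24). These medians are on the deposited scale, where all genes tested had -0.19. No gene of these lists passed the adjusted p, and 15.8% of all genes tested were lower at the unadjusted p.

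Oxa1l, the insertase that receives new chains from the mitochondrial ribosome, had 8.72, 9.36, 6.80 and 10.4 FPKM in tacrolimus libraries, against 11.9, 19.8, 11.3 and 11.2 FPKM in vehicle libraries. All tacrolimus values lay below all vehicle values (-0.54, SE 0.22, adjusted p = 0.25, limma). Fars2, the mitochondrial phenylalanyl-tRNA synthetase, averaged 15.7 ± 2.22 FPKM with tacrolimus and 23.5 ± 2.41 FPKM with vehicle (SD, n = 4 each), also without overlap (-0.56, adjusted p = 0.193, limma). Tfam, which packages and transcribes mitochondrial DNA, averaged 15.4 ± 4.62 FPKM with tacrolimus and 22.4 ± 2.51 FPKM with vehicle, with overlap (-0.54, adjusted p = 0.226, limma).

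Head-to-head neighbours were compared last. Of the partners of mitoribosomal genes, 29 were tested, among them the members Mrps11 and Mrpl46, each the partner of the other. Their median difference was -0.11, against -0.19 over all genes tested, and 1 was lower at an unadjusted p under 0.05 (Pnpla7, beside Mrpl41, -0.79), against 15.8% of all genes. None was higher. Mrpl41 itself had a difference of -0.04.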

How the data were processed

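Sample titles gave the treatment, tacrolimus for 4 libraries and vehicle for 4. Each deposited file lists 55487 Ensembl genes with a single value; no header names the unit, and from the values it was taken to be FPKM computed by the authors. The submitters' processing notes name HISAT2 2.1.0, RSEM 1.3.1, DESeq2 1.24.0 and GRCm38.p6, with no role or order. Identifiers were matched to GENCODE M21. Genes that reached 1 FPKM in 4 libraries or more (13032) were compared with limma 3.58.1 in R 4.3.3 on log2(FPKM + 1), with treatment as the only term, a mean-variance trend and Benjamini-Hochberg adjustment; fold changes of low genes are understated on this scale. The fit was tested on simulated data. Depth was estimated from the steps of low values: between 86.2% and 88.3% of these lay within 0.15 steps of a whole multiple, against 30% for evenly spread values, and counts were not recovered. FPKM carries no counting interval, so the spread between mice is the only error given. Alternatives were other pseudocounts, filters, scalings, marker levels as covariates, a replicate block and leaving out each library. Members and lists were chosen with earlier results of these data known. The genes named with values were the 8 members with the smallest p, the 5 highest and 3 lowest in mean, the largest positive difference, the Mrps18 paralogs, and 6 chosen for their roles (Mrpl12, Mrps12, Mrpl45, Mrps36, Mrps30 and Mrpl58); of other lists, up to 3 with the smallest p. Mrps11, Mrpl46, Mrpl23, Mrpl32, Sars2, Pnpla7, Mrpl41, the genes with copies and those with shared starts were named after their values had been seen. The promoter letters printed were settled after longer forms of the YY1 and NRF1 motifs had been searched.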

Additional observations from a re-analysis of the deposited data

Results flagged for a closer look

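In 82 groups of 4 libraries examined, 5 values stood far from the other 3, where chance alone gives about 1 in 20 groups. The 5 are near that rate. Mrpl42 was low in tacrolimus library 1, at 297 FPKM against 353 to 356 FPKM in the other tacrolimus libraries, and Mrpl45 was low in the same library, at 20.5 FPKM against 26.6 to 27.8 FPKM. mt-Nd4 was low in tacrolimus library 3, at 2873 FPKM against 3239 to 3293 FPKM, and in vehicle library 1, at 1811 FPKM against 2362 to 2453 FPKM. mt-Atp8 was high in tacrolimus library 2, at 1247 FPKM against 693 to 747 FPKM. The causes were not tested.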

How the results depend on the processing

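No mitoribosomal gene passed the adjusted p under any setting run, the smallest adjusted p lying between 0.199 and 0.457. The count of members lower at an unadjusted p under 0.05 (1 as deposited) was 0 with a filter of 1 FPKM in all 8 libraries, median-of-ratios or upper-quartile scaling, totals without mitochondrially encoded genes, totals without melanoma markers and the 20 most abundant genes, robust variance estimation or the melanoma marker level as a covariate, 4 with the T cell marker level as a covariate, where 17.7% of all genes were lower, and 0 to 1 with each library left out. The count higher (0 as deposited) was 12 with median-of-ratios scaling (5.17% of all genes), 14 with upper-quartile scaling (5.55%), 3 without mitochondrially encoded genes (2.38%), 6 without melanoma markers and abundant genes (2.97%), 1 with the melanoma covariate (2.06%), and 0 to 2 with each library left out (2 without vehicle 2, 1.90% of all genes; 1 without tacrolimus 1, 1.6%). Members lower without overlap (0) numbered 1 without mitochondrially encoded genes (7.27% of all genes) and 0 to 4 with a library left out (4 without vehicle 1, 19.0% of all genes; 3 without vehicle 4, 12.5%; 2 without tacrolimus 4, 17.9%; 1 without tacrolimus 3, 11.6%). Members higher without overlap (0) numbered 10 with median-of-ratios scaling (2.96% of all genes), 12 with upper-quartile scaling (3.25%), 1 without mitochondrially encoded genes (1.17%), 6 without melanoma markers and abundant genes (1.64%), and 0 to 3 with a library left out (3 without vehicle 2, 1.64% of all genes, and 1 without tacrolimus 1, 1.34%). Leaving out a library makes groups of 3 against 4, in which overlap is easier to avoid. The median difference of members was 0.17 with both of these scalings, -0.17 with the T cell covariate and -0.13 with the macrophage covariate (62 of 78 below 0 with each, and medians of -0.28 and -0.24 over all genes), and -0.10 to 0.02 with each library left out. For the mitochondrially encoded proteins it was 0.77 with median-of-ratios scaling, 0.78 with upper-quartile scaling, 0.39 with the macrophage marker level as a covariate and 0.49 to 0.65 with each library left out, and the 8 called at an unadjusted p under 0.05 numbered 4 with no filter on low values, 3 with the macrophage covariate and 5 with the T cell covariate. That count was 10 with median-of-ratios scaling. It was 9 with upper-quartile scaling, rescaling to an equal total or robust variance estimation. Totals without mitochondrially encoded genes, or without melanoma markers and the 20 most abundant genes, also gave 9. The log2 ratio of mitochondrially encoded to mitoribosomal sums (0.50) was 0.49 with nuclear copies and 0.40 to 0.57 with each library left out. Of all genes, 258 were lower and 13 higher past the adjusted p with the melanoma covariate, and 1 was higher without vehicle 1 (0 to 1 over the libraries left out; 0 lower). With the replicate number as a block 115 were lower and 6 higher, and 0 members were among them. Deviations of same-numbered libraries correlated at 0.21, 0.28, -0.02 and -0.02, and those of differently numbered libraries at -0.32 to 0.15. The values for numbers 1 and 2 were thus above those of every differently numbered pair. The numbers were not taken to pair the mice, and whether same-numbered libraries shared their handling was not tested. The block left the members' median at -0.05. The sign of the difference was followed for 38 genes, the members named by rule and the mitochondrially encoded genes tested. Other genes named with values, such as Oxa1l, were not among them. Of the 38, 9 changed the sign of an uncalled difference under median-of-ratios scaling, 8 with the T cell covariate and 5 with the macrophage covariate. The causes of these changes were not tested. Depth was similar between libraries. For 25 members the 95% interval on the deposited scale did not exclude a difference of 0.5 on the log2 scale. Smaller differences could be missed for any of the 78.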
